A study of Homo sapiens with 2 samples.

Results

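The genes described here are 10 members of the contractile machinery of smooth muscle and of the SRF pathway that controls it: ACTA2, ACTG2, TAGLN, CNN1, CNN2, TPM1, TPM2, MYL9, MYLK and SRF. They were taken by name, through GENCODE release 29 symbols, from the 58735 genes of both deposited tables. All 10 names matched. The data are RNA sequencing profiles of BT549, a breast cancer cell line with mesenchymal features, exposed to the ligand Wnt3a for 2 h in both groups. In the shSIK2 group, labelled Wnt3a-SIK2 knockdown, a short hairpin RNA was directed against SIK2, a salt-inducible kinase; the scrambled group, labelled Wnt3a-shRNA-control, carried a control hairpin. Each group held 1 library. The sources used here do not state the hairpin sequence, how many hairpins were used, or whether the cells were a clone.

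Smooth muscle contracts when myosin light chain kinase (MYLK) phosphorylates the regulatory light chain (MYL9) and myosin then pulls on actin filaments built from ACTA2 or ACTG2. Calponins, transgelin and tropomyosins bind along those filaments. SRF, a transcription factor, switches on many of these genes by binding a short element called the CArG box. It does so mainly with MRTF cofactors, which actin monomers hold in the cytoplasm, or with myocardin in muscle, whereas ternary complex factors such as ELK1 direct SRF to immediate early genes. In breast tissue ACTA2, CNN1 and MYLK are best known from myoepithelial cells, and ACTA2, TAGLN and TPM2 also from fibroblasts that have become contractile.

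The CArG box is a decamer with a pair of C at one end, a pair of G at the other and 6 A or T between, and it reads the same way on both strands. Promoter windows of 300 bases (250 before to 50 after a transcription start, RefSeq, GRCh38.p14) were held for 8 of the 10 genes and scanned for it; TAGLN and MYL9 were not scanned. An exact box was present in windows of 4 genes, ACTG2, CNN2, SRF and MYLK. Across all 35116 promoter windows 1.29% held an exact box and 18.9% held one that matched at 9 or more of its 10 positions. The stretches upstream of ACTA2, ACTG2, CNN2 and SRF are shown because boxes there lie outside annotated exons (the nearer exact box of ACTG2 runs 1 base into one), with every box that matches at 9 or 10 positions in capitals, 5′ to 3′ on the strand of the gene.
ACTA2, chr10:88952774-88952923, minus strand: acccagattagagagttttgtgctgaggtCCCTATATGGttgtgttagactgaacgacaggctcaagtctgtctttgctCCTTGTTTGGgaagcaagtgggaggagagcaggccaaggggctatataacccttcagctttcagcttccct
ACTG2, chr2:73892858-73892943, plus strand: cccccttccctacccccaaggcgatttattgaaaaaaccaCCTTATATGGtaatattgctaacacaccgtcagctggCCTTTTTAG
CNN2, chr19:1026458-1026580, plus strand: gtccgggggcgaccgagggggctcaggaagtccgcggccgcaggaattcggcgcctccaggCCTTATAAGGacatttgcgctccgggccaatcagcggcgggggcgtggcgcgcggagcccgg
SRF, chr6:43171119-43171268, plus strand: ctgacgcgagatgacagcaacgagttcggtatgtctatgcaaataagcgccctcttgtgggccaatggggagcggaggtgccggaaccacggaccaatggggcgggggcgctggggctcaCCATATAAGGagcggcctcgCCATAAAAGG

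The boxes of ACTA2 begin 121 and 71 bases before its downstream start, each matching at 9 positions; the window at its upstream start held none. ACTG2 had 2 exact boxes, 110 and 73 bases before the start, the last base of the nearer one lying in an annotated exon just past the stretch shown, and a further match at 9 positions 239 bases before it. In SRF, 2 exact boxes began 30 and 10 bases before the start, and a match at 9 positions began at base 14 past it. The box of CNN2 began 89 bases before the start. The MYLK window lies at an internal start near the end of the gene, the position known for telokin, a smooth muscle protein made from the end of the kinase, and its box began 94 bases before that start. Windows of CNN1, TPM1 and TPM2 held no match at 9 positions.

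Gene reads recovered from the deposited values totalled 16347399 for shSIK2 and 18019225 for scrambled. SIK2, the target of the hairpin, stood at 3.56 FPKM in the shSIK2 library and 7.80 FPKM in the scrambled library (599 reads in shSIK2 and 1312 in scrambled, 2.19-fold lower, 1.99 to 2.42). Its relatives were lower too: SIK1 had 279 reads in shSIK2 and 964 in scrambled (3.46-fold lower, 3.02 to 3.96), and SIK3 570 in shSIK2 and 1013 in scrambled (1.78-fold lower, 1.60 to 1.97). Since each group was 1 library, differences could not be checked against replicates and carry no p-value; each interval beside a fold is a 95% exact interval for counting error only. A log2 ratio is of shSIK2 over scrambled, of FPKM plus 0.1, as deposited. Genes that reached 1 FPKM in either library were counted as measured, 12866 in all. The deposited values share the same depth divisor, so every fold and ratio as deposited carries the 1.10-fold difference in read totals. Scaling both libraries to the same read total adds 0.14 to a log2 ratio and moves the median over all measured genes to 0.03, against -0.11 as deposited. In bulk RNA, fewer cells of a type and less RNA per cell cannot be told apart.

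Of the 10 genes, 8 were measured, and each of the 8 was above 1 FPKM in both libraries. In the shSIK2 library 3 of them were at least 2-fold higher (MYL9, TAGLN and ACTA2), 0 were at least 2-fold lower and 5 lay between. Over all measured genes 11.0% were at least 2-fold higher and 8.28% at least 2-fold lower. The median log2 ratio of the 8 was 0.87 (range -0.72 to 2.08). At equal totals CNN2 joined the higher genes, giving 4 of 8, against 13.4% higher and 6.04% lower over all measured genes. Removing the trend of ratios with GC content and gene length left 3 of 8 higher and 0 lower, against 10.7% and 6.78% over all measured genes. The members did not share a direction: beside the 3 higher genes, CNN2 and TPM2 had log2 ratios of 0.89 and 0.84, TPM1 0.19, MYLK -0.05 and SRF -0.72.

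**Figure D1:**
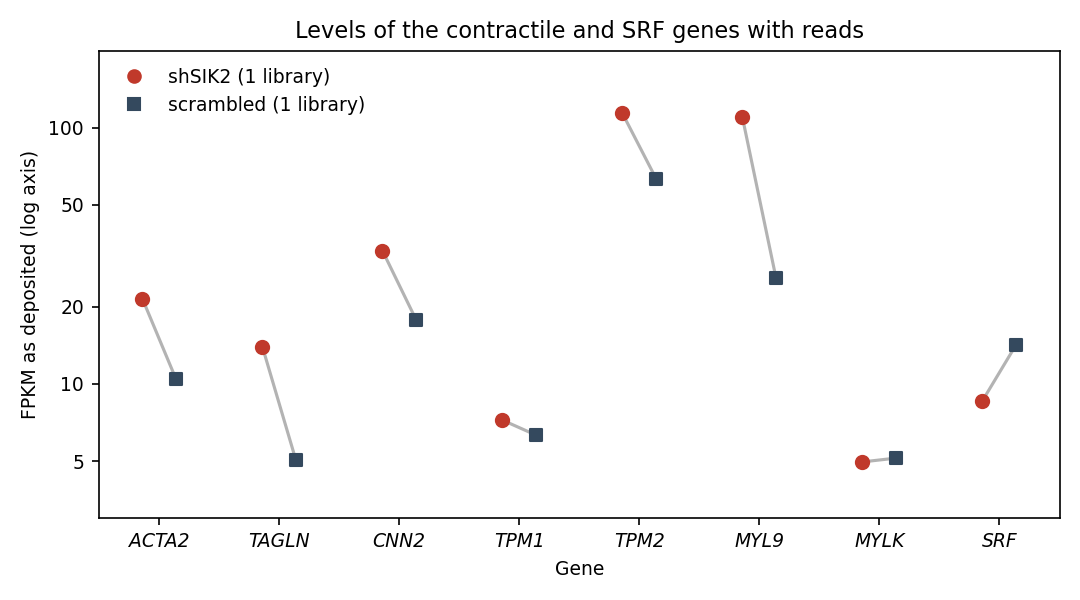
FPKM as deposited (log axis) of the 8 genes with reads, shSIK2 as red circles and scrambled as dark squares, 1 library each. MYL9, TAGLN, ACTA2, CNN2 and TPM2 sit higher in the shSIK2 library, TPM1 and MYLK differ little, and SRF sits lower.

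ACTA2, which encodes the alpha actin of vascular smooth muscle (ENSG00000107796, GRCh38 chromosome 10, 88935074 to 88991339), stood at 21.5 FPKM in the shSIK2 library and 10.5 FPKM in the scrambled library. These rest on 1100 reads in shSIK2 and 534 in scrambled, a 2.06-fold higher value (1.86 to 2.29), so counting error alone spans the 2-fold line. Of all measured genes 10.5% had a log2 ratio at least as high. Exons of genes on the opposite strand cover 30.1% of its exonic bases, 380 of them in FAS and 516 in ACTA2-AS1; the sources used here do not say whether counting used strand. FAS, a death receptor, was at 3.71 FPKM in the shSIK2 library and 4.10 FPKM in the scrambled library, and ACTA2-AS1 at 0.51 FPKM in shSIK2 and 0.18 FPKM in scrambled. The part of these overlaps in the ACTA2 value was not tested.

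ACTG2, the gamma actin of visceral smooth muscle (ENSG00000163017, chromosome 2, 73892314 to 73919865), had 0 reads in the shSIK2 library and 0 in the scrambled library. A count of 0 allows up to 3 reads, which at its exonic length is 0.046 FPKM. Its pair of exact CArG boxes therefore stood at a gene with no detectable transcript in either culture. CNN1, the calponin of differentiated smooth muscle (ENSG00000130176, chromosome 19, 11538717 to 11550323), also had 0 reads in both libraries, a limit of 0.061 FPKM.

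TAGLN, transgelin or SM22, an actin-binding protein that is an early marker of smooth muscle (ENSG00000149591, chromosome 11, 117199321 to 117204782), stood at 13.98 FPKM in the shSIK2 library and 5.03 FPKM in the scrambled library. It had 940 reads in shSIK2 and 338 in scrambled, a 2.78-fold higher value (2.45 to 3.16), and 6.26% of measured genes had a ratio at least as high. PCSK7, a protease gene on the opposite strand, shares 446 of its exonic bases and was at 1.82 FPKM in the shSIK2 library and 2.04 FPKM in the scrambled library.

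CNN2, the calponin that many non-muscle cells make (ENSG00000064666, chromosome 19, 1026581 to 1039068), stood at 33.2 FPKM in the shSIK2 library and 17.8 FPKM in the scrambled library. It had 2076 reads in shSIK2 and 1116 in scrambled, a 1.86-fold higher value (1.73 to 2.00). CNN2 was thus below the 2-fold line as deposited, with a log2 ratio of 0.89, and past it at equal totals, with 1.03.

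TPM2, beta tropomyosin (ENSG00000198467, chromosome 9, 35681992 to 35690121), was the most abundant member in both libraries, at 113.9 FPKM in the shSIK2 library and 63.4 FPKM in the scrambled library. It had 6351 reads in shSIK2 and 3534 in scrambled, a 1.80-fold higher value (1.72 to 1.87). TPM1, alpha tropomyosin (ENSG00000140416, chromosome 15, 63042632 to 63071915), differed far less, with 7.22 FPKM in the shSIK2 library and 6.31 FPKM in the scrambled library (1596 reads in shSIK2 and 1395 in scrambled, 1.14-fold, 1.06 to 1.23). The pair thus showed unlike changes: the fold of TPM2 exceeded that of TPM1 by a factor of 1.57 (1.45 to 1.71, counting error only). TPM1 has an exonic length of 12876 bases over all its annotated transcripts, against 3248 for TPM2, so its level per length may be understated.

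MYL9, the regulatory light chain of smooth muscle myosin (ENSG00000101335, chromosome 20, 36541484 to 36551447), showed the highest ratio of the 8. It stood at 109.8 FPKM in the shSIK2 library and 25.9 FPKM in the scrambled library, from 5317 reads in shSIK2 and 1254 in scrambled. The fold was 4.24 (3.99 to 4.51), and 3.16% of measured genes had a ratio at least as high. By level, 1.97% of measured genes exceeded MYL9 in the shSIK2 library and 13.9% in the scrambled library. No exon of another gene overlaps it, and no stretch of 50 bases in its transcripts occurs in a transcript of another gene.

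MYLK, the kinase that acts on that light chain (ENSG00000065534, chromosome 3, 123610049 to 123884331), was close in both libraries, at 4.96 FPKM in the shSIK2 library and 5.13 FPKM in the scrambled library. It had 1887 reads in shSIK2 and 1953 in scrambled, a fold of 0.97 (0.91 to 1.03). On the log2 scale this was -0.05 as deposited and 0.09 at equal totals, so its sign depends on the scaling. MYL9 was 22.1 times the FPKM of MYLK in the shSIK2 library and 5.05 times in the scrambled library. Both values depend on the exonic lengths used, 2821 bases for MYL9 and 22167 for MYLK. In reads MYLK exceeded MYL9 in the scrambled library, with 1953 against 1254.

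SRF (ENSG00000112658, chromosome 6, 43171299 to 43181507) was the 1 member lower in the shSIK2 library beyond counting error, at 8.60 FPKM against 14.2 FPKM in the scrambled library. It had 620 reads in shSIK2 and 1025 in scrambled, a 1.65-fold lower value (1.49 to 1.83), and 15.96% of measured genes had a ratio at least as low. On the log2 scale the difference was -0.72 as deposited and -0.58 at equal totals, short of 2-fold on both scales. The ratio of TAGLN to SRF in FPKM was 1.63 in the shSIK2 library and 0.35 in the scrambled library. That of MYL9 to SRF was 12.8 in shSIK2 and 1.82 in scrambled. These changes follow from the folds of each gene and are no separate result.

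**Figure D2:**
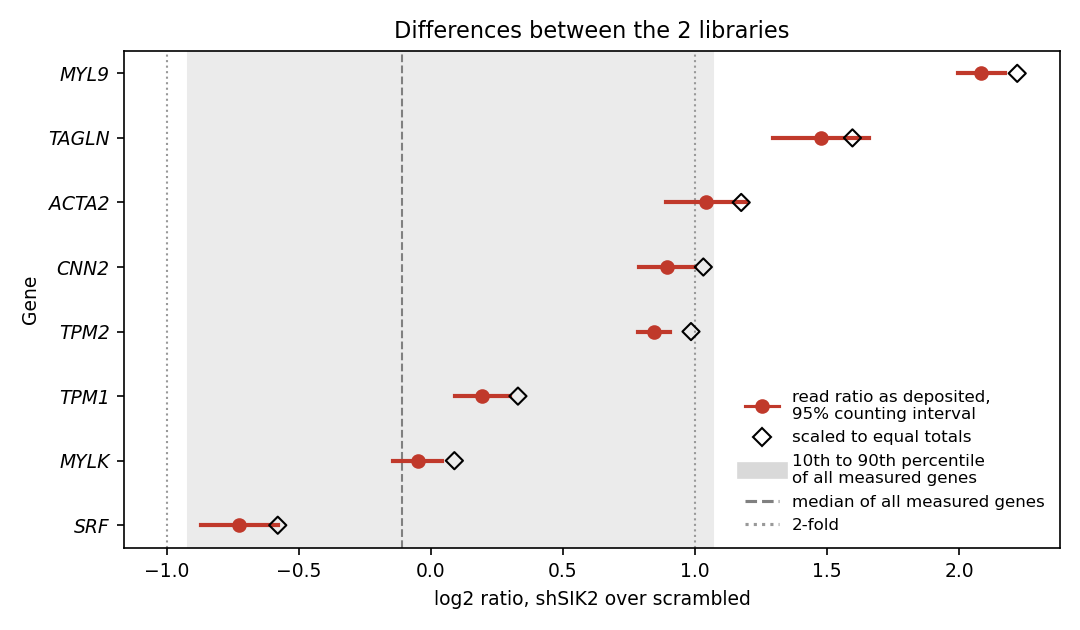
log2 ratio of shSIK2 over scrambled for the 8 measured genes: red points are ratios of recovered reads with 95% counting intervals, open diamonds the log2 ratios at equal totals, the grey band the 10th to 90th percentile of all measured genes (-0.92 to 1.07) and dotted lines 2-fold. MYL9 and TAGLN lie above the band, the ACTA2 interval crosses the 2-fold line, and the SRF interval lies below 0.

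The order of levels in the shSIK2 library was TPM2, MYL9, CNN2, ACTA2, TAGLN, SRF, TPM1 and MYLK. In the scrambled library it was TPM2, MYL9, CNN2, SRF, ACTA2, TPM1, MYLK and TAGLN. By FPKM, TAGLN was the lowest of the 8 in the scrambled library, whereas MYLK was the lowest in the shSIK2 library. The place of MYLK depends on the exonic length used, 22167 bases against 3917 for TAGLN. In reads MYLK exceeded ACTA2, TAGLN, SRF and TPM1 in both libraries, with 1887 in shSIK2 and 1953 in scrambled. SRF stood above ACTA2 and TAGLN in the scrambled library and below both in the shSIK2 library. Spread between cultures is not known, so the order of neighbours such as TPM1 and MYLK rests on 1 library each.

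Each contractile gene has relatives that most cells use, and the share within a family does not depend on how libraries are scaled. MYL9 made up 48.4% of the FPKM of the 3 myosin regulatory light chains in the shSIK2 library and 15.96% in the scrambled library. Its non-muscle relatives MYL12A and MYL12B differed far less: MYL12A stood at 62.1 FPKM in the shSIK2 library and 67.3 FPKM in the scrambled library, and MYL12B at 54.7 FPKM in shSIK2 and 69.1 FPKM in scrambled. The log2 ratio of MYL12A was -0.12 as deposited, 0.02 at equal totals and 0.14 after trend removal, so its sign depends on the scaling; that of MYL12B was -0.34, -0.20 and -0.21. Relative to MYL12A, MYL9 was 4.59-fold higher (4.25 to 4.96). MYL9 was thus the most abundant of the 3 in the shSIK2 library and the least abundant in the scrambled library.

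TPM2 made up 47.7% of tropomyosin FPKM in the shSIK2 library and 29.7% in the scrambled library, and by FPKM TPM4 was the most abundant of the 4 only in the scrambled library. In reads TPM4 exceeded TPM2 in both, with 12566 and 6351 in shSIK2 and 13047 and 3534 in scrambled. The exonic length used was 8632 bases for TPM4 and 3248 for TPM2, so this order depends on the lengths. TPM3 was lower, at 32.7 FPKM in the shSIK2 library and 56.0 FPKM in the scrambled library (1.72-fold, 1.65 to 1.78), while TPM4 was at 84.8 FPKM in shSIK2 and 88.1 FPKM in scrambled, a log2 ratio of -0.05 that is 0.09 at equal totals. The share of TPM1 was 3.03% in the shSIK2 library and 2.95% in the scrambled library. TAGLN was 10.4% of transgelin FPKM in the shSIK2 library and 5.21% in the scrambled library. Its relative TAGLN2 was 1.31-fold higher (1.26 to 1.37), at 120.3 FPKM in the shSIK2 library and 91.5 FPKM in the scrambled library. CNN2 was 22.8% of calponin FPKM in the shSIK2 library and 14.9% in the scrambled library, beside CNN3 at 112.4 FPKM in shSIK2 and 101.6 FPKM in scrambled.

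ACTA2 stayed a small part of actin in both cultures, 0.79% of actin FPKM in the shSIK2 library and 0.49% in the scrambled library. The cytoplasmic actins made up nearly all the rest. ACTB stood at 1215 FPKM in the shSIK2 library and 1157 FPKM in the scrambled library (1.05-fold, 1.04 to 1.06). ACTG1 stood at 1486 FPKM in the shSIK2 library and 988 FPKM in the scrambled library (1.505-fold, 1.49 to 1.52). ACTA2 was therefore 1.96-fold higher relative to ACTB (1.77 to 2.18), but 1.37-fold higher relative to ACTG1 (1.23 to 1.52). The skeletal and cardiac actins ACTA1 and ACTC1, and TAGLN3, had 0 reads in both libraries. Of stretches of 50 bases, ACTB shared 4.84% with transcripts of other genes, among them its pseudogenes, and ACTA2 0.87%, so how reads divide among the cytoplasmic actins is less certain than for ACTA2.

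**Figure D3:**
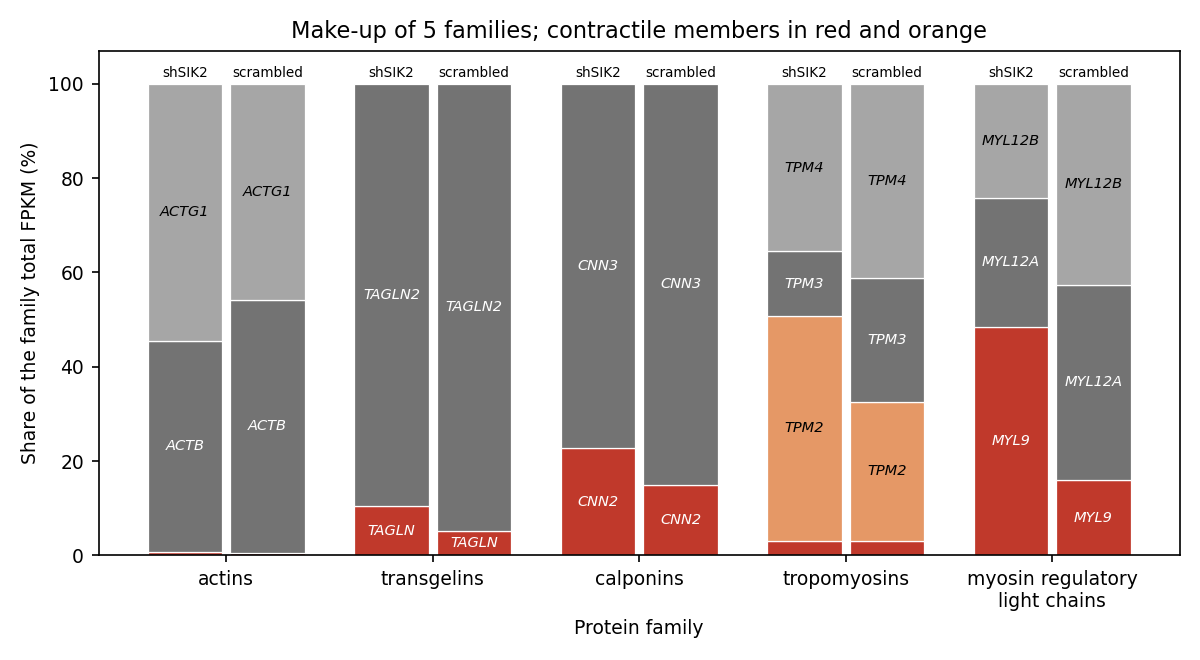
Share of each family's summed FPKM (%) taken by each gene, with the shSIK2 bar left of the scrambled bar; contractile members are red or orange and their relatives grey. The MYL9 part is 48.4% in the shSIK2 bar and 15.96% in the scrambled bar; the TPM2 part is 47.7% in the shSIK2 bar and 29.7% in the scrambled bar, and ACTA2 is a thin strip in both.

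Among the cofactors of SRF, 9 of 12 listed genes were measured. Of these, 1 was at least 2-fold higher and 2 lower, beside 11.0% and 8.28% over all measured genes. Of the actin-sensing coactivators, MRTFA stood at 4.72 FPKM in the shSIK2 library and 3.84 FPKM in the scrambled library (1.23-fold, 1.08 to 1.40), and MRTFB at 2.67 FPKM in shSIK2 and 2.47 FPKM in scrambled (1.08-fold, 0.97 to 1.20). Myocardin (MYOCD) had 0 reads in the shSIK2 library and 1 in the scrambled library, and ABRA, a muscle activator of this pathway, had 0 in shSIK2 and 1 in scrambled. Among the ternary complex factors ELK4 was 2.76-fold lower (2.56 to 2.97), at 4.74 FPKM in the shSIK2 library and 13.1 FPKM in the scrambled library. ELK1 was 1.46-fold lower (1.32 to 1.61) and ELK3 1.11-fold lower (1.03 to 1.19), though the log2 ratio of ELK3, -0.15 as deposited, was -0.01 at equal totals and 0.16 after trend removal.

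The LIM proteins that work with SRF differed in direction. TGFB1I1 (Hic-5), a focal adhesion coactivator, was 3.63-fold higher (3.25 to 4.06), at 16.1 FPKM in the shSIK2 library and 4.44 FPKM in the scrambled library. CSRP1, a LIM protein of smooth muscle, was 4.04-fold lower (3.67 to 4.45), at 2.999 FPKM in the shSIK2 library and 12.1 FPKM in the scrambled library. FHL2 stood at 11.5 FPKM in shSIK2 and 10.4 FPKM in scrambled, a 1.11-fold difference. SRFBP1, a listed cofactor that is not a LIM protein, was 1.30-fold lower. CSRP2 did not reach 1 FPKM in either library, with 0.78 FPKM in the shSIK2 library and 0.51 FPKM in the scrambled library.

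Beyond the 10 genes, most other contractile genes of smooth muscle stayed below 1 FPKM in both libraries. Of 20 listed, 7 were measured and 6 had 0 reads in both libraries. Among the 7, 4 were at least 2-fold higher and 0 lower, beside 11.0% and 8.28% over all measured genes. The count higher was 2 with a pseudocount of 1 FPKM or a minimum of 5 FPKM and 3 after trend removal, and with no minimum 2 were lower. SMTN (smoothelin) was 2.27-fold higher (2.01 to 2.58), SYNM, an intermediate filament protein, 2.57-fold (2.19 to 3.04) and PDLIM7, a stress fibre adaptor, 2.77-fold (2.56 to 3.01); TGFB1I1 is in this list too. FHL1, a LIM protein, stood at 41.1 FPKM in the shSIK2 library and 33.1 FPKM in the scrambled library, and CALD1 (caldesmon) at 13.2 FPKM in shSIK2 and 14.8 FPKM in scrambled. The genes that define mature smooth muscle were near 0: MYH11, its myosin heavy chain, had 4 reads in the shSIK2 library and 18 in the scrambled library, LMOD1 had 5 in shSIK2 and 16 in scrambled, and desmin (DES) had 0 in both. These defining markers were at or near 0 in both cultures, so the genes are named here by the machinery they encode and not by a cell type.

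The other cytoskeletal targets known for MRTF and SRF were mixed. Of 31 listed, 28 were measured, 3 higher by 2-fold or more and 1 lower, beside 11.0% and 8.28% over all measured genes, and their median log2 ratio was 0.15. MYH9, the main non-muscle myosin heavy chain, was 2.08-fold higher (2.03 to 2.12), at 151.4 FPKM in the shSIK2 library and 72.9 FPKM in the scrambled library. TGFB1I1 and PDLIM7 were the other higher genes. After trend removal 1 gene remained higher, TGFB1I1 at a log2 ratio of 1.72, with PDLIM7 at 0.98 and MYH9 at 0.90. TUFT1 was 4.55-fold lower (4.30 to 4.81), at 22.8 FPKM in the shSIK2 library and 103.6 FPKM in the scrambled library. The immediate early genes that SRF shares with ternary complex factors, a list that includes SRF itself, had no common direction. Of 10 measured, 2 were at least 2-fold higher and 1 lower, beside 11.0% and 8.28% over all measured genes. Their median log2 ratio was -0.11, and that of all measured genes was also -0.11. FOS had 294 reads in the shSIK2 library and 33 in the scrambled library, and EGR1 had 734 in shSIK2 and 227 in scrambled, while ATF3 was 2.81-fold lower (2.55 to 3.09) and MCL1 1.86-fold lower (1.81 to 1.92).

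The partners of MYL9 in the motor were higher in part. MYL6, the essential light chain, was 2.09-fold higher (1.96 to 2.22) and the heavy chain MYH10 1.80-fold higher (1.68 to 1.93). MYL6 and MYH9 made 2 of 6 measured non-muscle myosin II genes at least 2-fold higher, with 0 lower, beside 11.0% and 8.28% over all measured genes. After trend removal the 2 higher genes were MYL6 at a log2 ratio of 1.17 and MYH10 at 1.01, with MYH9 at 0.90. Genes that set light chain phosphorylation had a median of -0.27, below the -0.11 of all measured genes. Of 18 measured, 2 were at least 2-fold lower and 0 higher, beside 8.28% lower and 11.0% higher over all measured genes. PPP1R12A, the targeting subunit of myosin phosphatase, was 2.11-fold lower (1.95 to 2.28), and CDC42BPA, a kinase acting on the myosin pathway, 3.18-fold lower (3.05 to 3.32). After trend removal PPP1R12A was short of 2-fold, at a log2 ratio of -0.71. DAPK1, another kinase of light chains, was 1.97-fold higher (1.76 to 2.20), and PAK2 1.77-fold lower (1.70 to 1.84).

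Focal adhesion and stress fibre genes had 5 of 25 at least 2-fold higher and 1 lower (median 0.39), beside 11.0% and 8.28% over all measured genes; after trend removal 2 were higher, with SORBS3 at a log2 ratio of 0.91. PDLIM1 was 6.37-fold higher (4.45 to 9.38), FHL3 4.56-fold (3.32 to 6.37) and SORBS3 2.63-fold (2.28 to 3.04), each an adaptor of actin bundles or adhesions. TGF-beta and myofibroblast genes had 2 of 15 higher and 1 lower (median -0.36), beside 11.0% and 8.28% over all measured genes. TGFBI, a matrix protein, was 4.16-fold higher (3.998 to 4.32) and COL1A1 2.06-fold higher (1.87 to 2.27). The receptor TGFBR1 was 2.09-fold lower (1.95 to 2.24) and the signal transducer SMAD2 1.69-fold lower (1.57 to 1.82). After trend removal 1 of the 15 was higher and 0 lower, with COL1A1 at a log2 ratio of 0.76 and TGFBR1 at -0.72.

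**Figure D4:**
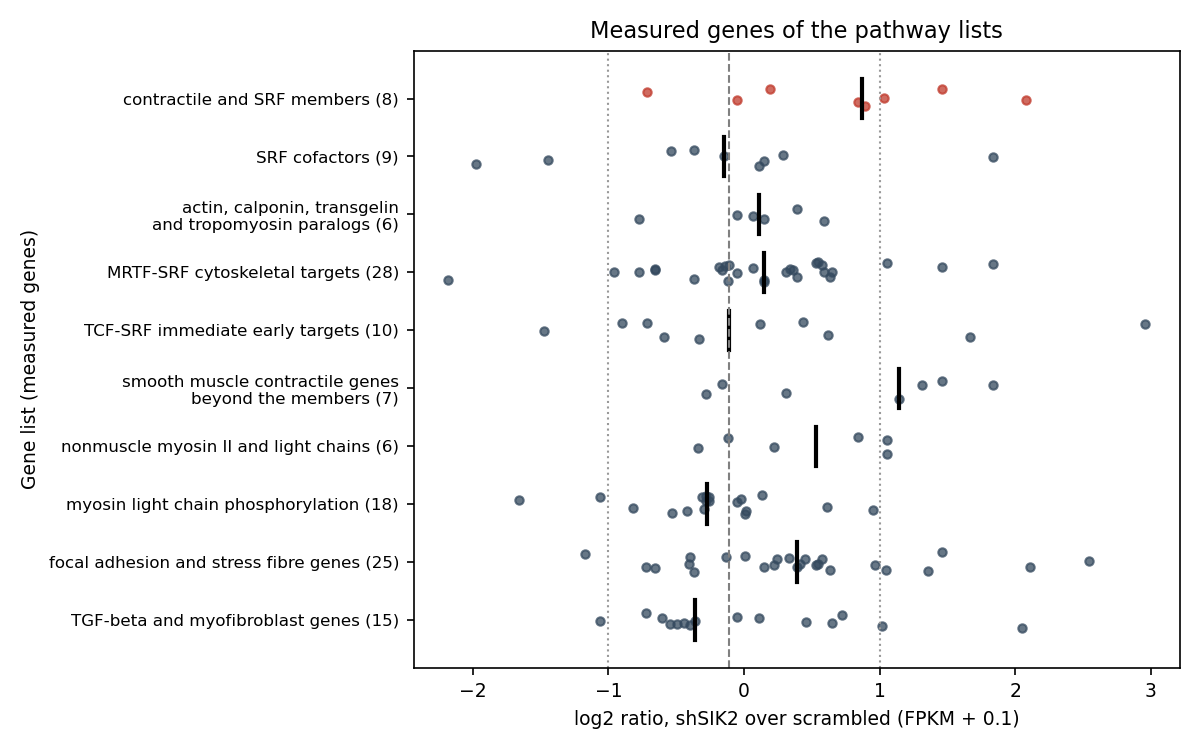
log2 ratios (shSIK2 over scrambled, FPKM plus 0.1) of measured genes in the contractile set (red) and 9 pathway lists (dark; some genes are in several lists), with list medians as black bars, the median of all measured genes dashed and 2-fold dotted. The contractile set has a median of 0.87, against 1.15 for other smooth muscle contractile genes, 0.53 for non-muscle myosin II and -0.27 for light chain phosphorylation.

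Markers of other cell types that use contractile genes were read beside them. All 8 mesenchymal markers of the labelled line were measured, with 3 at least 2-fold higher and 0 lower, beside 11.0% and 8.28% over all measured genes. Their summed level was 666 FPKM in the shSIK2 library and 415 FPKM in the scrambled library. The matrix genes COL3A1 and SPARC were 5.22-fold (5.004 to 5.45) and 4.95-fold higher (4.76 to 5.14), COL1A1 was the other higher gene, and CDH11, a cadherin, was 1.65-fold higher (1.497 to 1.83). VIM (vimentin) stood at 283 FPKM in the shSIK2 library and 260 FPKM in the scrambled library. The remaining markers went the other way. AXL was 1.39-fold lower (1.32 to 1.45), FN1 1.32-fold lower (1.26 to 1.39) and ZEB1 1.14-fold lower (1.09 to 1.19). The log2 ratio of ZEB1 was -0.18 as deposited and 0.18 after trend removal. Epithelial CDH1 had 2 reads in the shSIK2 library and 11 in the scrambled library, EPCAM had 0 in both, and KRT18 was 9.02-fold higher (7.45 to 11.0). Basal and myoepithelial markers had 2 of 4 measured at least 2-fold higher (OXTR and CDH3) and 2 lower (KRT14 and LAMA3), beside 11.0% and 8.28% over all measured genes. The count lower was 1 at equal totals, where LAMA3 was at -0.99, and 1 after trend removal. It was 0 with a pseudocount of 1 FPKM or a minimum of 5 FPKM, and KRT14 had 7 reads in shSIK2 and 46 in scrambled. The summed level of the list was 24.5 FPKM in the shSIK2 library and 13.2 FPKM in the scrambled library. Of the defining genes, KRT5 had 4 reads in shSIK2 and 3 in scrambled, and TP63 had 3 in shSIK2 and 9 in scrambled. Of 6 pericyte markers 4 were measured. CSPG4 was 6.30-fold higher (5.39 to 7.39), MCAM 3.02-fold higher (2.55 to 3.59), NOTCH3 1.98-fold higher (1.88 to 2.08) and RGS5 3.16-fold lower (2.66 to 3.76). PDGFRB, below 1 FPKM in both libraries, had 103 reads in shSIK2 and 13 in scrambled (7.92-fold higher, 4.43 to 15.4). KCNJ8 was at 0 in both. The summed level of the 6 markers was 42.2 FPKM in the shSIK2 library and 21.4 FPKM in the scrambled library. Their part in the contractile values was not tested. Skeletal and cardiac muscle, leukocyte and endothelial markers were at or near 0, except TNNT1, at 32.3 FPKM in the shSIK2 library and 21.2 FPKM in the scrambled library.

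By distance in log2 FPKM over the 2 libraries, the protein-coding genes most like ACTA2 were LOXL1, which crosslinks elastin, ARFGAP1, a regulator of Golgi transport, and NPDC1. LOXL1 was at 20.6 FPKM in the shSIK2 library and 10.8 FPKM in the scrambled library, ARFGAP1 at 20.6 FPKM in shSIK2 and 10.1 FPKM in scrambled, and NPDC1 at 22.7 FPKM in shSIK2 and 9.90 FPKM in scrambled. With 2 libraries this likeness rests on 1 level and 1 difference. Of the 4 scanned genes with an exact CArG box, CNN2 had a log2 ratio of 0.89 and SRF -0.72, and ACTG2 was without reads. MYLK had -0.05 over the whole gene, but its box lies at the internal start, and no window at the start of the full kinase was scanned. ACTA2, whose boxes match at 9 positions, had 1.04, and TPM2, whose window held none, 0.84. The members with the highest ratios, MYL9 and TAGLN, were not scanned.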

How the data were processed

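Per the labels, total RNA was extracted with Trizol and sequenced from Illumina libraries; the submitters' processing notes list HISAT2 2.0.5 and hg18. The sources used here do not give the counter, annotation or strand setting. The 2 deposited tables hold FPKM, per the file headers. All 58735 identifiers matched GENCODE release 29 (GRCh38), the source of symbols, exon lengths and coordinates, which differs from the build in the notes. FPKM times exon length gave whole multiples of 58.3 for 100% of values above 0 (tolerance 0.001), taken as reads. The same step held in both libraries, a depth divisor of 1.7163e+07 reads. The deposited values were thus scaled for gene length but not to each library's own read total. With 1 library per group no test was made; 2-fold on log2(FPKM + 0.1) set the calls, which understates low genes. Since no molecular identifiers were counted, reads need not be independent, and both the intervals (Clopper-Pearson, conditional on the sum) and the 3-read limit cover counting error only. Intervals of a ratio between genes use the sum of reciprocal reads.

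The members and the 18 pathway and marker lists were chosen with earlier results of these data known; 1 list is not reported here. Named genes were the 10 members, SIK2, every SRF cofactor, measured relatives, up to 4 genes with the largest absolute log2 ratio per list, and the 3 genes nearest to ACTA2. FAS, ACTA2-AS1, PCSK7, MYL12A, SIK1, SIK3, VIM, AXL, FN1, ZEB1, FHL1, CALD1, PDGFRB and genes near 0 were named after their values were seen. Alternatives were pseudocounts of 1 and 0.01, equal totals, no minimum or 5 FPKM, removal of a GC and length trend (medians in 20 bins each, repeated once), and thresholds of 1.5-fold and 3-fold. Read recovery, calls, intervals and trend removal were tested on simulated data. Computations used scipy 1.17.1, pandas 2.3.3, numpy 2.4.6 and Python 3.11.15, with matplotlib 3.10.9 for figures.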

Additional observations from a re-analysis of the deposited data

How the results depend on the processing

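With 1 library per group no replicate could be left out, and no paired analysis was possible because each group held 1 library. The count of members at least 2-fold higher was 3 as deposited and stayed within 2 to 4 under both pseudocounts, equal totals, both other minimums and removal of the GC and length trend; it was 5 at 1.5-fold and 1 at 3-fold. The count at least 2-fold lower was 0 in all of these except at 1.5-fold, where it was 1 (SRF). With a pseudocount of 1 FPKM the higher genes were TAGLN and MYL9, with ACTA2 just short at 0.98. The median log2 ratio of the members was 0.87, but 1.01 at equal totals and 0.52 with no minimum, which adds ACTG2 and CNN1 at 0. After trend removal the log2 ratios of MYL9, SRF and TPM1 were 1.79, -0.98 and 0.47. The sign of MYLK changed at equal totals and after trend removal (0.17); the other 7 genes kept theirs under those 6 alternatives. Among lists, equal totals left 1 of 18 measured light chain phosphorylation genes at least 2-fold lower (2 as deposited), with 1 higher. Over all measured genes at equal totals the shares were 6.04% lower and 13.4% higher. TGFBR1 was also short of 2-fold at equal totals. Depth limits ACTG2, CNN1 and the mature smooth muscle markers, which were at or near 0 reads.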

Other observations

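Genes lying near the members on their chromosomes were compared as a description. Within 1 Mb of MYL9, 26 other genes were measured, with a median log2 ratio of 0.46 (range -0.52 to 2.15). Of these, 4 were higher by 2-fold or more and 0 lower, beside 11.0% and 8.28% over all measured genes. For 62 neighbours of CNN2 the median was 0.25, and for 26 neighbours of TPM2 it was 0.20. Around ACTA2 and TAGLN the neighbours were on the other side of 0, with medians of -0.48 over 9 genes and -0.40 over 12. The neighbours of SRF had a median of -0.01 over 36 genes. MYL9, TAGLN and ACTA2 were each above the median of their surroundings, and SRF below it.

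The members differ in GC content. The longest transcript of MYL9, the member with the highest ratio, had 60.5% GC and that of SRF, with the lowest, 60.9%. The median over measured genes was 47.8%. Removal of the GC and length trend lowered both log2 ratios, MYL9 from 2.08 to 1.79 and SRF from -0.72 to -0.98. ACTA2 had 51.8% and TPM1 45.9%.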
